A study of Mus musculus with 4 samples.

Results

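Nat10, its tRNA adaptor gene Thumpd1 and 8 genes for proteins of small nucleolar ribonucleoprotein particles (snoRNPs) were followed in mouse female germline stem cells (FGSCs) after knockdown of the long non-coding RNA Gm26917. The 10 genes were chosen by name, and each matched 1 of the 12701 genes in the deposited table. Lentiviral short hairpin RNAs had been used to make both groups, shGm26917 cells with a hairpin against Gm26917 and shNC cells with the control hairpin, and the study's methods describe selection of infected cells with puromycin or blasticidin S. Each group held 2 RNA-seq libraries of total RNA from ovary-derived FGSCs, so 4 libraries were compared. The sources used here do not name the hairpin against Gm26917 that the sequenced cells carried, nor whether they were 1 clone, nor the age of the mice of origin. The study keeps its mice on a C57BL/6J background. The study calls its sequenced samples biological replicates but does not say whether the libraries of 1 group were made from different cultures, so the spread behind each p-value is that between these libraries and may be technical.

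NAT10 is the enzyme that acetylates cytidine in RNA, giving the mark ac4C in ribosomal RNA, in transfer RNA with the help of the adaptor THUMPD1, and, as has been reported, in messenger RNA. Most other modifications of ribosomal RNA are placed by snoRNPs, in which a small nucleolar RNA (snoRNA) pairs with the target and core proteins carry out the reaction. In box C/D particles fibrillarin, NOP56, NOP58 and SNU13 add methyl groups to ribose, and in box H/ACA particles dyskerin, NHP2, NOP10 and GAR1 turn uridine into pseudouridine. Some snoRNAs act as scaffolds instead, such as the box C/D snoRNAs that, in yeast and human cells, help the acetyltransferase reach its sites in the small-subunit rRNA. NOLC1 is a nucleolar phosphoprotein that binds both classes of particle.

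Of the 10 genes, 3 rose in shGm26917, 0 fell and 7 did not pass the test (limma, adjusted p under 0.05). The 3 were Nat10, Nop56 and Dkc1, one from each of the acetyltransferase pair, the box C/D core and the box H/ACA core, and in no case did the partners of the same group pass with them. Across all genes tested, 11.6% were called higher and 11.5% lower, and the members' share was not tested against that background. At an unadjusted p under 0.05, 4 of the 10 were higher (Nolc1 in addition) and 0 lower, against 18% of all genes higher and 19.2% lower. The log2 fold change was above 0 for 9 of the 10 genes, against 49.1% of all genes, and the median was 0.12 over the 10 genes and -0.0058 over all genes. For 5 of the 10 both shGm26917 libraries lay above both shNC libraries and for 0 both lay below, while 31.5% of all genes lay wholly above and 32.7% wholly below.

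Nop56, Nop58 and Dkc1 are also annotated as host genes, with snoRNA genes in their introns in the same orientation. GENCODE M21 places 10 snoRNA genes in them, 5 in Nop56, 4 in Nop58 and 1 in Dkc1, and 0 in the other 7 genes. Of 11386 protein-coding genes of the table found in GENCODE M21, 223 (1.96%) hold a snoRNA gene on their own strand. These 10 snoRNAs had no row in the table, so only the messenger RNAs of their hosts were measured here. The sequences of 4 of them are given as examples of particle RNAs that lie within genes for the particles' own proteins. Snord110 (chr2:130275506-130275573, plus strand, mm10) lies in intron 3 of Nop56 and Gm24451 (chr2:130276237-130276369) in intron 5, while Snord70 (chr1:59691934-59692020, plus strand) and Snord11 (chr1:59704790-59704873) lie in introns 2 and 9 of Nop58. Introns are counted on the principal transcript, and capitals mark ATGATG of box C with CTGA of box D, or, in Gm24451, the ACA that lies 3 bases from the end in box H/ACA snoRNAs.
Snord110: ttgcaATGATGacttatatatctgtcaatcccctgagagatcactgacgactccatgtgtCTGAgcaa
Gm24451: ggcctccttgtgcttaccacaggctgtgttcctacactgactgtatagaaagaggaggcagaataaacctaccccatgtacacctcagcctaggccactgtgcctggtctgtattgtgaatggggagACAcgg
Snord70: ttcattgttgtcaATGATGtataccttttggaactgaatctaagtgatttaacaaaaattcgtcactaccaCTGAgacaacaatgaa
Snord11: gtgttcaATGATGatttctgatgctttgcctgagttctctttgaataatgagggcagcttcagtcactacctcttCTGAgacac
In the 10 hosted snoRNAs, the letters ATGATG and CTGA stood near the ends of 7, on the snoRNA's own strand. Gm25520, the only snoRNA gene annotated in Dkc1, had neither these letters nor ACA 3 bases from its end. Snord57 of Nop56 had CTGA near its end, at base 66 of 72, but neither ATGATG nor ACA 3 bases from its end.

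The libraries were first checked against their labels. The listed genes summed to 755159 and 771715 CPM (reads scaled to a common library size) in shGm26917 and to 766064 and 768440 CPM in shNC. Most values were whole multiples of 1 step per library, the worth of 1 read, which puts the effective library sizes at 35895016 and 31632834 reads in shGm26917 and at 15929459 and 25711610 reads in shNC, the shNC libraries being the shallower ones. On these steps each of the 10 genes rested on an estimated 705 to 8724 reads in a shGm26917 library and 313 to 6059 reads in a shNC library. Gm26917 as annotated had 136 and 104 CPM in shGm26917, against 155 and 157 CPM in shNC, and did not pass (log2 fold change -0.39, limma adjusted p = 0.0696). It passed without shGm26917 replicate 1 (-0.58, adjusted p = 0.000278), but not without shGm26917 replicate 2 (-0.19, adjusted p = 0.207) or without shNC replicate 1 or 2 (adjusted p = 0.501 and 0.516). Gm42418, the lncRNA annotated next to it, had 729 and 687 CPM in shGm26917, against 2882 and 3462 CPM in shNC (-2.16, adjusted p = 5.57e-05). Of 10 FGSC markers, 4 had a row, Ifitm3, Etv5, Gfra1 and Zbtb16, and summed to 83.0 and 83.3 CPM in shGm26917, against 118 to 130 CPM in shNC. Ifitm3 fell, with means of 52.8 CPM in shGm26917 and 93.2 CPM in shNC (-0.81, limma adjusted p = 0.000902). The other 3 did not pass, at log2 fold changes of -0.04 for Etv5, 0.34 for Gfra1 and -0.30 for Zbtb16. The germ cell markers Ddx4, Dazl and Dppa3 were not analysed here. Kit, shared by germ cells and mast cells, stood at 1187 to 1228 CPM in shGm26917 and 1203 to 1279 CPM in shNC.

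Nat10 (ENSMUSG00000027185, chr2:103721256-103761270, minus strand, mm10) showed the largest log2 fold change of the 10. It had 44.5 and 46.9 CPM in the shGm26917 libraries, against 37.3 and 32.6 CPM in the shNC libraries. The groups did not overlap, and the gap between them exceeded the distance between the libraries of either group. The mean was 45.7 ± 1.72 CPM in shGm26917 and 34.9 ± 3.32 CPM in shNC (SD, n = 2), a log2 fold change of 0.39 with a 95% interval of 0.20 to 0.57 (1.31-fold, interval 1.15 to 1.48, limma adjusted p = 0.0131). Of all genes tested, 8.58% had a higher log2 fold change. The call held with any 1 library left out, at log2 fold changes of 0.29 to 0.48, with shNC replicate 2 as the lowest library. It was lost when limma was run without a variance trend and without robust moderation (adjusted p = 0.0606), and its adjusted p ranged down to 0.000332 over the other settings. Since the RNA came from bulk cultures, more cells with the transcript and more transcript per cell cannot be told apart, here or for any gene below.

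Thumpd1 (chr7:119715093-119720798, minus strand), whose protein delivers NAT10 to tRNA, had 43.9 and 46.2 CPM in shGm26917, against 44.8 and 42.1 CPM in shNC. The groups overlapped, and the log2 fold change was 0.05 with a 95% interval of -0.10 to 0.20 (adjusted p = 0.592). The interval leaves room for a rise of up to 1.15-fold. The log2 ratio of Nat10 to Thumpd1 within a library was 0.021 and 0.021 in shGm26917, against -0.26 and -0.37 in shNC, a difference of 0.33. The ratios of the groups did not overlap, and with 2 libraries against 2 an exact permutation test of such a ratio cannot go below p = 0.333, so no ratio was tested.

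**Figure D1:**
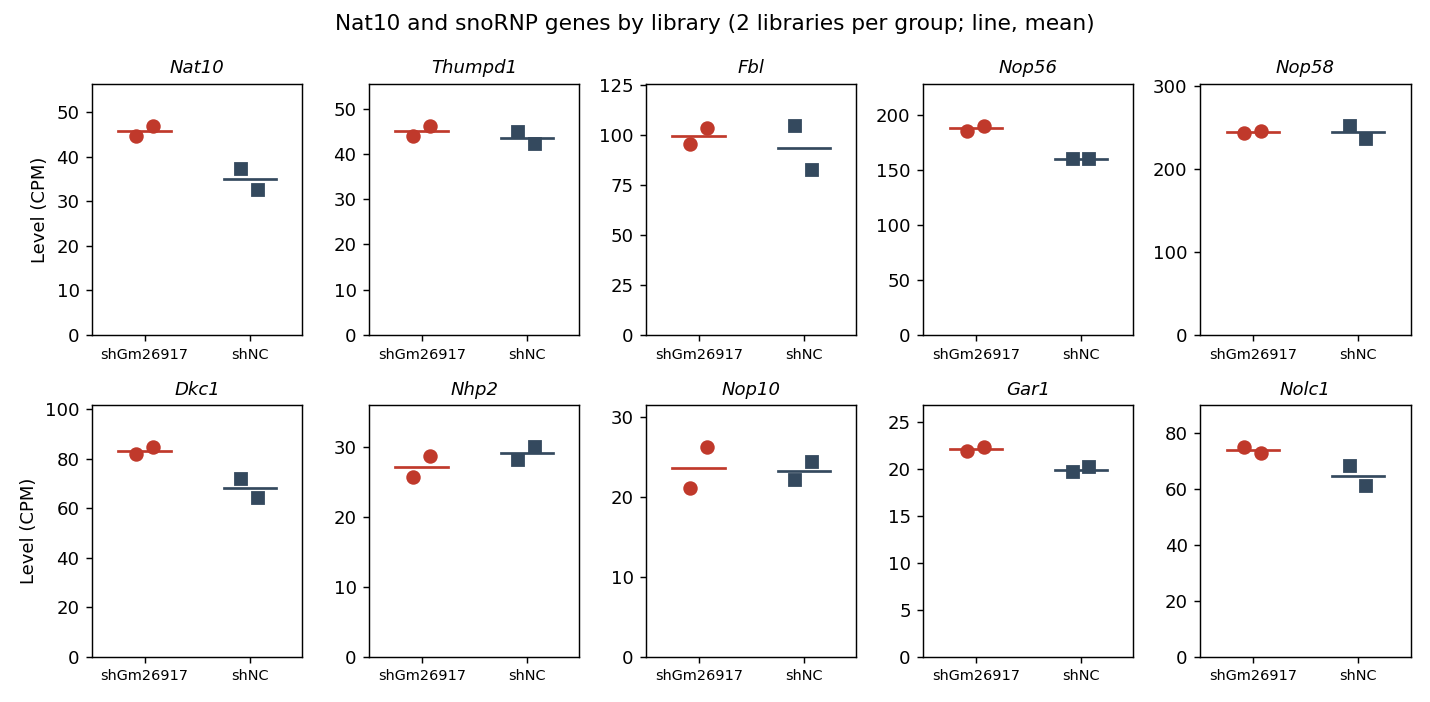
Level of each of the 10 genes in CPM on an axis from 0 (vertical) in shGm26917 (circles, left) and shNC (squares, right), 1 point per library and a line at the group mean. Nat10, Nop56, Dkc1, Gar1 and Nolc1 had both shGm26917 points above both shNC points, while Thumpd1, Fbl, Nop58, Nhp2 and Nop10 overlapped.

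Among the box C/D core genes, Nop56 rose and Fbl and Nop58 did not pass. Nop56 (chr2:130274430-130279313, plus strand), which encodes a scaffold protein that bridges the methylase to the particle, had 186 and 190 CPM in shGm26917, against 160 and 160 CPM in shNC. The shNC libraries differed by less than 1 CPM, and the groups did not overlap. This was a log2 fold change of 0.23 with a 95% interval of 0.11 to 0.36 (1.18-fold, adjusted p = 0.0181). The call did not hold without shGm26917 replicate 1 (log2 fold change 0.25, adjusted p = 0.0784) or without shGm26917 replicate 2 (0.22, adjusted p = 0.146), and it was also lost without trend and robust moderation (adjusted p = 0.0775). The size of the change was therefore similar in each of these fits, while the call was not.

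Nop58 (chr1:59684971-59719044, plus strand), the paralogue of Nop56 that joins it in every box C/D particle, had 243 and 246 CPM in shGm26917, against 252 and 236 CPM in shNC. Both shGm26917 values lay between the shNC values. The log2 fold change was 0.0038 with a 95% interval of -0.13 to 0.14 (adjusted p = 0.969), and its sign turned when shGm26917 replicate 2 or shNC replicate 2 was left out (-0.0039 and -0.044). The log2 ratio of Nop56 to Nop58 was -0.39 and -0.37 in shGm26917, against -0.66 and -0.56 in shNC, a difference of 0.23 without overlap.

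Fbl (chr7:28169710-28179269, plus strand), which encodes fibrillarin, the ribose methylase itself, was the most variable of the 10 within shNC. It had 95.7 and 103.8 CPM in shGm26917, against 104.9 and 82.5 CPM in shNC, and the groups overlapped. The log2 fold change of 0.10 (95% interval -0.18 to 0.37, adjusted p = 0.574) depended on which shNC library was kept. Without shNC replicate 1 it was 0.27 and passed (adjusted p = 0.0138), and without shNC replicate 2 it was -0.074 and did not (adjusted p = 0.416). Snu13, the remaining box C/D core gene and not one of the 10, had 71.4 and 82.2 CPM in shGm26917, against 59.4 and 69.1 CPM in shNC. Its groups did not overlap, and the change of 0.26 on the log2 scale missed the threshold (adjusted p = 0.0881). It passed without shGm26917 replicate 1 and without shNC replicate 2 (adjusted p = 0.0258 and 0.0421).

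Among the box H/ACA core genes, Dkc1 rose and Nhp2, Nop10 and Gar1 did not pass. Dkc1 (chrX:75095854-75109777, plus strand), which encodes dyskerin, the pseudouridine synthase that is also part of telomerase, had 81.9 and 84.7 CPM in shGm26917, against 72.1 and 64.1 CPM in shNC. The groups did not overlap, and the shNC libraries lay further apart than the shGm26917 libraries. Its log2 fold change was 0.29 with a 95% interval of 0.13 to 0.45 (1.22-fold, adjusted p = 0.022). The call was lost without shGm26917 replicate 2 (0.27, adjusted p = 0.088) and without trend and robust moderation (adjusted p = 0.0893), and it held without any 1 of the other libraries.

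Nhp2 (chr11:51619735-51623714, plus strand), which encodes an RNA-binding core protein, had 25.7 and 28.7 CPM in shGm26917, against 28.2 and 30.0 CPM in shNC. It was the only 1 of the 10 with a log2 fold change below 0, at -0.10 (95% interval -0.28 to 0.09, adjusted p = 0.411), and its groups overlapped. Nop10 (chr2:112261926-112263269, plus strand), whose small protein binds dyskerin, had 21.1 and 26.2 CPM in shGm26917, against 22.2 and 24.3 CPM in shNC. The shGm26917 libraries stood on either side of the shNC libraries. Its log2 fold change of 0.02 (95% interval -0.23 to 0.28, adjusted p = 0.914) ranged from -0.13 to 0.17 with 1 library left out. Gar1 (chr3:129824912-129831396, minus strand), whose protein joins the particle last, in exchange for NAF1, had 21.9 and 22.3 CPM in shGm26917, against 19.6 and 20.1 CPM in shNC. Its groups did not overlap, but the log2 fold change of 0.15 did not pass (95% interval -0.02 to 0.32, adjusted p = 0.179).

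**Figure D2:**
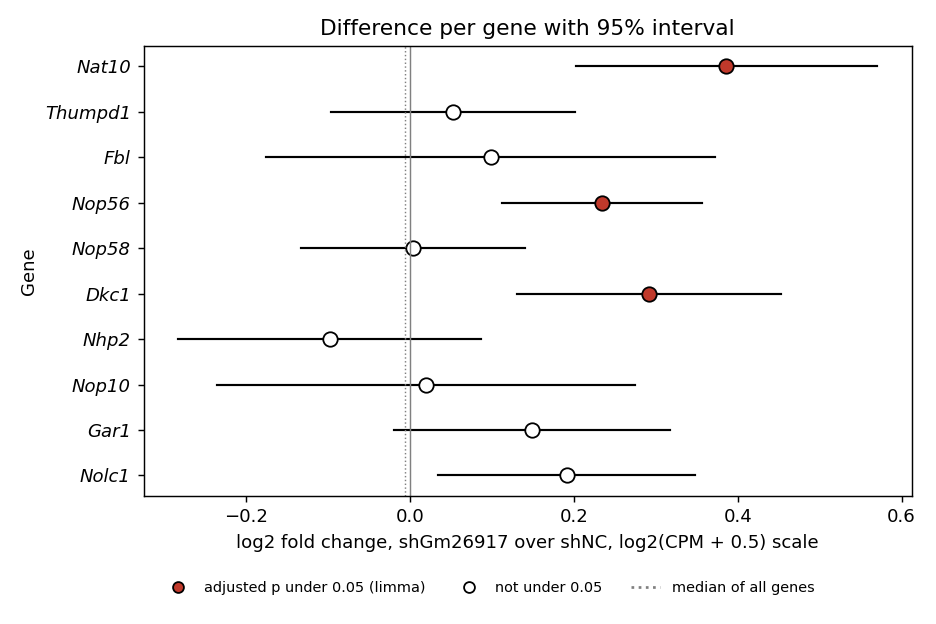
Log2 fold change of shGm26917 over shNC on the log2(CPM + 0.5) scale (horizontal) for each of the 10 genes (vertical), with its 95% interval from limma, filled where the adjusted p was under 0.05. The filled points are Nat10 at 0.39, Dkc1 at 0.29 and Nop56 at 0.23, and the interval of Nolc1, 0.03 to 0.35, also lies above 0 although its adjusted p does not pass.

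Ratios within a library do not depend on the scaling between libraries. The log2 ratio of Dkc1 to Nhp2 was 1.65 and 1.54 in shGm26917, against 1.34 and 1.08 in shNC, a difference of 0.39. The log2 ratio of Dkc1 to Gar1 was 1.88 and 1.90 in shGm26917, against 1.85 and 1.65 in shNC, a difference of 0.14. With 1 library left out these differences ranged from 0.26 to 0.52 for Dkc1 to Nhp2 and from 0.042 to 0.24 for Dkc1 to Gar1, each lowest without shNC replicate 2 and highest without shNC replicate 1. Neither ratio overlapped between the groups, whereas that of Dkc1 to Nop10 did, with 1.93 and 1.67 in shGm26917 and 1.68 and 1.38 in shNC. In the box C/D core the ratio of Nop56 to Fbl overlapped as well, with 0.95 and 0.87 in shGm26917 and 0.60 and 0.95 in shNC, and its difference turned to -0.035 without shNC replicate 1. The log2 ratio of Nat10 to Dkc1, both of which rose, was -0.87 and -0.84 in shGm26917, against -0.94 and -0.96 in shNC.

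**Figure D3:**
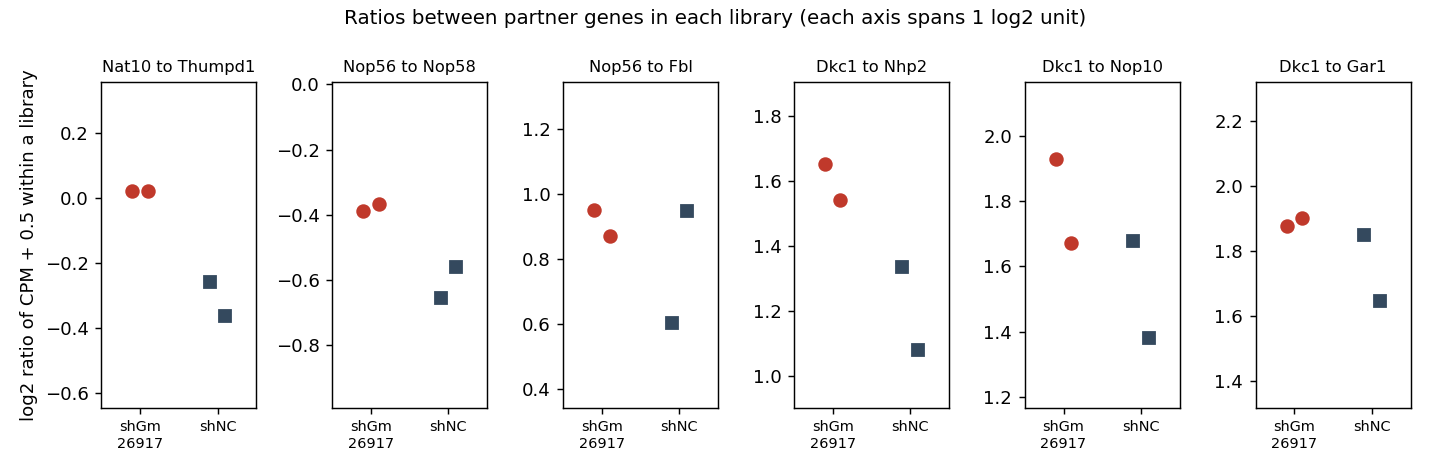
Log2 ratio of CPM + 0.5 between partner genes within each library (vertical, each axis spanning 1 log2 unit) in shGm26917 (circles, left) and shNC (squares, right). Nat10 to Thumpd1, Nop56 to Nop58, Dkc1 to Nhp2 and Dkc1 to Gar1 were higher in both shGm26917 libraries, while Nop56 to Fbl and Dkc1 to Nop10 overlapped.

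Nolc1 (chr19:46075863-46085530, plus strand) had 74.9 and 72.9 CPM in shGm26917, against 68.3 and 61.2 CPM in shNC. The groups did not overlap, and shNC replicate 2 was again the lowest library. It was so too for Nat10, Thumpd1, Fbl, Nop58 and Dkc1, and barely so for Nop56. The log2 fold change was 0.19 with a 95% interval of 0.03 to 0.35, and the adjusted p of 0.0793 did not pass. It passed without shNC replicate 1 (0.27, adjusted p = 0.00904). Its change was smaller than that of Dkc1 in the same libraries, and the log2 ratio of Nolc1 to Dkc1 was -0.13 and -0.21 in shGm26917, against -0.08 and -0.07 in shNC.

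The choice of libraries changed which genes were called. Without shGm26917 replicate 1, 2 of the 10 passed (Nat10 and Dkc1), and without shGm26917 replicate 2 only Nat10 did. Without shNC replicate 1, Fbl and Nolc1 joined the 3, and without shNC replicate 2 the 3 were Nat10, Nop56 and Dkc1. In these fits the lone library of a group is assumed to vary like the other group. The share of all genes called higher moved too, and was 7.39% and 5.92% without shGm26917 replicates 1 and 2, against 14.1% and 13.9% without shNC replicates 1 and 2.

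**Figure D4:**
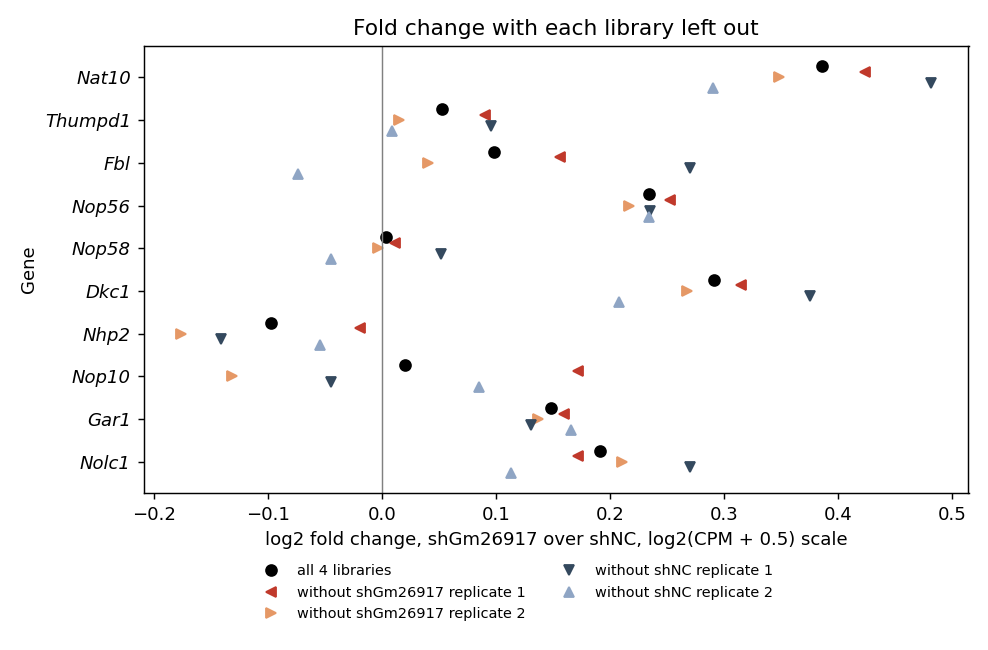
Log2 fold change of shGm26917 over shNC on the log2(CPM + 0.5) scale (horizontal) for each of the 10 genes (vertical) with all 4 libraries and with each library left out. Nat10 stays between 0.29 and 0.48 and Nop56 between 0.22 and 0.25, while Fbl, Nop58 and Nop10 lie on both sides of 0.

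Levels of different genes were compared per kilobase of the longest principal transcript in GENCODE M21. Nop58 stood highest, at means of 143 CPM per kilobase in shGm26917 and 142 in shNC, and was above every other gene in each library. Nop56 had 100.1 CPM per kilobase in shGm26917 and 85.0 in shNC, and Fbl had 83.3 in shGm26917 and 78.3 in shNC, so the levels of these neighbours overlapped across libraries. On this length all 3 box C/D genes lay above the next, Nhp2 and Dkc1, which had means of 27.0 each over the 4 libraries. Nhp2 had 24.7 and 27.6 CPM per kilobase in shGm26917, against 27.1 and 28.8 in shNC, and Dkc1 had 29.2 and 30.2 in shGm26917, against 25.7 and 22.9 in shNC. On this length Dkc1 was above Nhp2 in both shGm26917 libraries and below it in both shNC libraries. Nop10 and Nolc1 followed, with means of 21.1 and 19.1 CPM per kilobase over the 4 libraries, and Gar1 and Thumpd1, at 16.5 each, could not be ordered. On this length Dkc1 was above Nop10, and Nolc1 above Gar1, within every library, although their ranges over the libraries overlapped. Nop10 was below Nolc1 in shGm26917 replicate 1 and above it in each other library. Nat10 was lowest in every library, at 11.5 and 12.1 CPM per kilobase in shGm26917, against 9.61 and 8.40 in shNC. The order depends on the transcript length used, and with all exons merged Nop56 came first, Nhp2 came before Fbl and Nop58 in the means, at 24.6, 23.0 and 22.7 CPM per kilobase, and Dkc1 was below Nhp2 in every library, while Nat10 stayed last.

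Some reads could have been shared with other genes. Processed pseudogenes and other transcripts alike to a member over at least 200 bases at 90% identity were found for Nop56 (6 genes), Fbl (3), Dkc1 (2) and Nhp2 (1), and for 0 of the other 6 genes. Of these 12 genes only Tulp4, a transcript of which shares 690 bases with Fbl, had a row, at 222 CPM in shGm26917 and 228 CPM in shNC. The ends of Nop56, Dkc1 and Nhp2 overlap genes on the opposite strand, Idh3b, Mpp1 and Rmnd5b, and the sources do not say whether counting used strand. Idh3b, Mpp1 and Rmnd5b did not pass (log2 fold changes of -0.07, 0.21 and 0.06, limma adjusted p = 0.439, 0.0605 and 0.615). The 3 hairpin sequences against Gm26917 and the shNC sequence that the study lists had no exact match in the transcripts of the 10 genes (0 of 86 searched).

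The stretches before the start sites of the 3 genes that rose were compared, using RefSeq promoter sequence on GRCm38.p6. A promoter was available for 9 of the 10 genes, all but Fbl, as 250 bases before and 50 bases after the start. That of Thumpd1 (chr7:119723570-119723869) belongs to another start and lies wholly outside the gene as listed, which ends at chr7:119720798. The E-box CACGTG, which reads the same on both strands, was in 0 of the 9, against 7.15% of 32851 promoters of the same length. The GC box GGGCGG, sought on both strands, was in 4 of the 9 (Nop56, Nop58, Nhp2 and Nolc1), against 35.7% of all promoters. A match describes letters only. The 120 bases directly before the RefSeq start of each gene that rose are shown 5′ to 3′ on the gene's strand. Capitals mark the GC box in its reverse reading. The stretches lie at chr2:103761271-103761390 for Nat10, chr2:130274292-130274411 for Nop56 and chrX:75095734-75095853 for Dkc1. For Nop56 the RefSeq start lies before that of the gene as listed, chr2:130274430.
Nat10: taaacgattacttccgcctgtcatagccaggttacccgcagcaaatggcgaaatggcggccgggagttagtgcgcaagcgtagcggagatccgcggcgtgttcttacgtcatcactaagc
Nop56: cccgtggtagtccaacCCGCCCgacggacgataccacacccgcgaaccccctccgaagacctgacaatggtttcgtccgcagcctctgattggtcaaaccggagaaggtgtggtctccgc
Dkc1: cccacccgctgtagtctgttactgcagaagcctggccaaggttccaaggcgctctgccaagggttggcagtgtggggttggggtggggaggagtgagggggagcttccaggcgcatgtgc
The bases G and C made up 55.8%, 62.5% and 64.2% of the stretches of Nat10, Nop56 and Dkc1.

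Genes that work beside the 10 were counted from lists written with earlier results of these data known. Across all genes tested, 11.6% were called higher and 11.5% lower, at a median log2 fold change of -0.0058. No list, here or below, was tested against these shares. Of 19 other genes for snoRNP assembly and related particles, 2 rose and 1 fell, with a median log2 fold change of 0.02. Naf1, which encodes the H/ACA assembly factor that GAR1 replaces, had 40.3 and 40.1 CPM in shGm26917, against 27.9 and 29.0 CPM in shNC (0.49, adjusted p = 0.00248), and passed with any 1 library left out. Lsm11, of the U7 particle of histone mRNA processing, and Sart3, a recycling factor of spliceosomal particles, were called at 0.38 and -0.24 (adjusted p = 0.0479 and 0.0316), and neither acts on the snoRNPs described here. Both calls were lost without shGm26917 replicate 1 (0.053 and 0.146), shGm26917 replicate 2 (0.254 and 0.168) or shNC replicate 1 (0.106 and 0.0502). The assembly list held 1 higher and 0 lower calls without either shGm26917 library, and 2 higher and 3 lower without shNC replicate 2.

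The U3 processome is the assembly around the box C/D snoRNA U3 that processes small-subunit pre-rRNA. Of 50 genes listed for it or for later small-subunit maturation, 8 rose and 1 fell, against 11.6% and 11.5% of all genes. The median log2 fold change was 0.06. Those with the smallest p were Esf1 (0.35), Wdr3 (0.38) and Utp25 (0.39), and Utp11 fell (-0.19). Esf1 and Wdr3 passed with any 1 library left out, Utp25 was lost without shGm26917 replicate 2 (adjusted p = 0.0585), and Utp11 passed only without shNC replicate 1 (0.0285). Without either shGm26917 library the list held 3 genes called higher and 0 called lower, without shNC replicate 1 it held 9 and 2, and without shNC replicate 2 it held 6 and 3.

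Of 50 tRNA modification genes, 7 rose and 1 fell, against 11.6% and 11.5% of all genes, at a median log2 fold change of 0.08. Dus4l, a dihydrouridine synthase gene, had 18.4 and 19.2 CPM in shGm26917, against 8.60 and 11.2 CPM in shNC (0.90, adjusted p = 0.00342). Adat1, a tRNA adenosine deaminase gene, and Qtrt2, which encodes a subunit of the queuine transferase, had log2 fold changes of 0.91 and 0.44, and these 3 calls held with any 1 library left out. Nsun2, a cytosine methyltransferase gene, fell (-0.21, adjusted p = 0.0345), a call lost without shGm26917 replicate 1 or 2 (0.143 and 0.195). With 1 library left out, the tRNA list held 5 higher and 0 lower calls (without shGm26917 replicate 1), 3 and 0 (without shGm26917 replicate 2), 6 and 3 (without shNC replicate 1) or 8 and 1 (without shNC replicate 2).

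The 18 rRNA modification enzymes that act without snoRNAs, Emg1 and Bud23 of the processome list included, had a median log2 fold change of -0.01. Of these, 2 rose and 0 fell, against 11.6% and 11.5% of all genes. The 2 were Mrm3, a mitochondrial rRNA methylase gene (0.58, adjusted p = 0.0348), and Nop2, a nucleolar cytosine methyltransferase gene (0.23, adjusted p = 0.0395). Without shGm26917 replicate 1, shGm26917 replicate 2 or shNC replicate 1 neither of them passed, nor did any other gene of the list. Of 22 genes of the RNA polymerase I machinery, 3 rose and 1 fell, against those same shares of all genes, at a median of -0.05. Polr1b, which encodes a core subunit of the polymerase, had a log2 fold change of 0.41 and Polr2e, whose subunit is shared between polymerases, one of -0.40, and both held with any 1 library left out. The subunit genes Cd3eap (0.43, adjusted p = 0.0424) and Twistnb (0.19, adjusted p = 0.0478) passed in only 1 of the 4 fits with a library left out, Cd3eap without shNC replicate 2 (0.00998) and Twistnb without shNC replicate 1 (0.0183). The list held 1 higher and 1 lower call without shGm26917 replicate 1, 1 and 2 without shGm26917 replicate 2, 2 and 1 without shNC replicate 1, and 2 and 3 without shNC replicate 2.

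Telomerase holds dyskerin, NHP2, NOP10 and GAR1, and its other protein genes Tert and Wrap53 did not pass. Their log2 fold changes were 0.13 and -0.25, at a median of -0.06. Wrap53 had 3.18 and 2.97 CPM in shGm26917, against 4.52 and 3.07 CPM in shNC, so its difference lay mainly in shNC replicate 1. The 82 genes with symbols of cytosolic ribosomal proteins, the like-named Rpl7l1, Rpl22l1 and Rps27l included, had a median log2 fold change of -0.02. Of these, 0 rose and 1 fell, against 11.6% and 11.5% of all genes. That count depended on the library, as 19 were called higher and 0 lower without shGm26917 replicate 1, 0 higher and 4 lower without shGm26917 replicate 2, 2 higher and 3 lower without shNC replicate 1, and 0 higher and 5 lower without shNC replicate 2. Summed ribosomal protein levels were 29168 and 34993 CPM in shGm26917, against 31931 and 32430 CPM in shNC, so the shGm26917 libraries lay on either side of shNC, as they did for Nop10.

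Markers of other cells moved beside these results. Of 8 granulosa cell markers, 3 had a row, and Inhba, Fst and Gja1 all fell, summing to 39.9 and 40.7 CPM in shGm26917, against 74.8 to 80.4 CPM in shNC. Of 9 stroma markers, 7 had a row, of which Col3a1 rose and Thy1 and Prrx1 fell, and the sum was 409 to 421 CPM in shGm26917, against 475 to 497 CPM in shNC. Of 12 mast cell markers, 5 had a row, of which Cpa3 rose and Gata2, Mcpt8 and Ms4a2 fell. The sum of the 5 was 2344 to 2381 CPM in shGm26917, against 2218 to 2252 CPM in shNC. The mean of Cpa3 was 778 CPM in shGm26917 and 516 CPM in shNC. Kit and those that fell had lower means in shGm26917, Kit with 1207 CPM against 1241 CPM in shNC. Ms4a2 stood at 0.25 CPM and was listed at 0 in the shGm26917 libraries, against 1.82 and 2.29 CPM in shNC. Of 9 oocyte markers only Kit had a row, and it did not pass (-0.04, adjusted p = 0.721). The part of these shifts in the levels of Nat10, Nop56 and Dkc1 was not tested.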

How the data were processed

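RNA-seq was performed on shGm26917 and shNC FGSCs, and groups were taken from the genotype labels. The build mm10 and the tools edgeR, RSEM 1.2.28 and Bowtie2 2.1.0 are those in the submitters' processing notes, and the authors deposited 1 table of CPM for 12701 genes. CPM are relative, so a change in a few abundant RNAs shifts all other values, and RSEM splits reads shared between alike genes. The worth of 1 read was read from the lowest values, and 70.8% to 74.9% of values lay within 0.02 of a whole number of reads. RSEM estimates need not be whole, so counts were not rebuilt for a count test. The table also holds the authors' own fold changes, p-values and calls, which were not used.

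The test on counts planned for count tables was not used, since the values were CPM. They were transformed as log2(CPM + 0.5) and compared in R 4.3.3 by a two-sided limma 3.58.1 test with robust moderation and a variance trend. The p-values were adjusted by the Benjamini-Hochberg method over all 12701 genes and called under 0.05. Fold changes understate the change of low genes. The members and the gene lists were chosen with earlier results of these data known. Named were the 10 members, Gm26917 and Gm42418, Snu13, up to 3 called genes per list and direction with the smallest p, the 5 genes most like Nat10, and, after their values were seen, the marker genes and the genes overlapping or alike to a member. A gene that this rule would name among the ribosomal protein genes is not reported here. Alike transcripts were sought with BLAST 2.17.0, and the positions of all 10 members equalled those of GENCODE M21.

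In simulated data over 12701 genes, 50 genes each were changed by 1.3, 1.5, 2 and 4 fold. Of these 64%, 98%, 100% and 100% were recovered, with 11 false calls. Genes of like level were given the same spread, set somewhat wider than the libraries give, whereas real genes of like level differ in spread. Far fewer genes were changed than were called in the data (1469 higher, 1461 lower). The recovery and the false calls may therefore differ in the data. Alternatives were a pseudocount of 0.1 or of 1, upper-quartile or median-ratio scaling, at least 5 CPM in 2 libraries, limma without trend and robust moderation, the replicate number as a block, library sizes that leave out the mitochondrial genes, Gm42418 and Gm26917, and each library left out.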

Additional observations from a re-analysis of the deposited data

How the results depend on the processing

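The members called higher numbered 3 under both pseudocounts, both scalings, the stricter filter and the changed library size, with log2 fold changes for Nat10 of 0.38 to 0.40 over all settings that kept the 4 libraries. Without trend and robust moderation the members called higher by limma were 0, and 3 were higher at an unadjusted p under 0.05, against 16.8% of all genes (log2 fold changes of 0.39, 0.23 and 0.29 for Nat10, Nop56 and Dkc1 as before, adjusted p = 0.0606, 0.0775 and 0.0893), and 929 and 918 of all genes were called higher and lower, against 1469 and 1461. The labels number the libraries in both groups but do not say that a number marks a shared culture or day, and deviations of same-numbered libraries correlated at r = 0.112 over 10034 genes in 2 pairs only, so the replicate block is a check and not the result. With it 4 members passed, Nolc1 being added (0.19, adjusted p = 0.0201), of 1979 higher and 2003 lower calls.

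With 1 library left out, the members called higher ranged from 1 to 5, and calls over all genes from 752 to 1793 higher and from 832 to 1735 lower. The log2 fold change ranged from 0.22 to 0.25 for Nop56, from 0.21 to 0.38 for Dkc1, from 0.11 to 0.27 for Nolc1, from -0.074 to 0.27 for Fbl, from -0.044 to 0.052 for Nop58 and from -0.13 to 0.17 for Nop10. The cause of these shifts was not tested. With 2 libraries a group, changes of the size seen for Gar1 or Nolc1 are smaller than the smallest simulated one, 1.3-fold, of which 64% were recovered. The same holds for Nop56 (1.18-fold) and Dkc1 (1.22-fold), although both were called. Nat10, at 1.31-fold, lies about at that smallest size.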

Other observations

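The 5 genes whose levels followed those of Nat10 most closely over the 4 libraries were Ptger3, a prostaglandin receptor gene, Acacb, an acetyl-CoA carboxylase gene, Itga4, an integrin gene, Lmbrd2 and Ralgapa2. They were the nearest of 8127 genes with mean levels of 10 CPM or more, by the root mean square difference of centred log2(CPM + 0.5), which was 0.012 to 0.018. Ptger3 had 49.0 and 52.4 CPM in shGm26917, against 40.7 and 36.2 CPM in shNC, and Itga4 had 106 and 111 CPM in shGm26917, against 86.5 and 77.0 CPM in shNC. Over so few libraries many genes come close by the same measure. Of the other members Dkc1 came nearest, at rank 90 with a difference of 0.049, followed by Nop56 at rank 731 and Nolc1 at rank 805. Nhp2 was farthest, at rank 5537.

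The table held rows for 4 copies of U3, the box C/D snoRNA of the small-subunit processome, Rnu3b1, Rnu3b2, Rnu3b3 and Rnu3b4 on chromosome 11. Each was listed at 0 in both shGm26917 libraries and at 1.06 and 1.46 CPM in the shNC libraries. The 4 rows hold identical values and are not separate measurements. These levels lie near the lowest in the table, and the sources do not say how far short RNAs were kept in the libraries.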
